A study of Solanum lycopersicum with 36 samples.

Results

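The candidate miRNAs of 20 to 22 nt are the short candidates among the small RNAs of tomato leaf, 175 of the 765 different sequences listed for the 12 small RNA libraries. A sequence was a member when its deposited name began with PC, the mark of a predicted candidate without a family name, and when it had 20, 21 or 22 nt, with each sequence counted once. The other sequences were 234 candidates of 24 nt, 21 candidates of further lengths, 257 named miRNAs of 20 to 22 nt and 78 named sequences of further lengths. The candidates carry the names of the study, PC with a number for the precursor and 5p or 3p for its arm. All plants were wild type tomato of the cultivar ‘Jinlingmeiyu’, which the study describes as sensitive to heat, to drought and to both together. Water was withheld from part of the plants at an age of 24 days, and 3 days later watered and dry plants were each divided between a day temperature of 26 °C and of 38 °C. The 4 treatments were thus control (26 °C, irrigated), drought (26 °C, water withheld), heat (38 °C, irrigated) and combination (38 °C, water withheld), with 3 libraries each from the first fully expanded leaf. The labels give 48 h of treatment, whereas the study states that leaves of an earlier time were sequenced.

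A plant miRNA is cut by a DICER-LIKE enzyme from a folded precursor as a duplex of a 5p and a 3p arm, with short 3′ ends that stick out. In most duplexes one arm, the guide, is loaded into an ARGONAUTE protein and directs the cutting of matching transcripts, and the other arm is mostly lost. DICER-LIKE 1 makes mainly miRNAs with 21 bases, ARGONAUTE 1 prefers a uridine at the 5′ end, guides with 22 bases can start the formation of secondary small RNAs, and small RNAs with 24 bases are mostly linked to DNA methylation.

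The sequences below are those on which the results turn. They are written 5′ to 3′ with T for U, and capitals mark the seed, bases 2 to 8. The first set holds both arms of PC-56, the most abundant candidate, and of PC-132, PC-85 and PC-115, whose arms were higher at 38 °C or at combination.
PC-56-5p: tAACTTCGtctagctcgccttc
PC-56-3p: aGGGGAGAtagatgaagttagg
PC-132-5p: aGACAATCcagccgaggaactt
PC-132-3p: tCCTCGGCtgaattgtcttgct
PC-85-5p: aGCTTGTAgaatctcctttcc
PC-85-3p: tGAAAGGAgatcctacaagct
PC-115-5p: aCATGAGAtgctattgatgga
PC-115-3p: aTCAATGGcgtctcgtgtaact

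The second set holds 4 arms of other precursors that were also called at 38 °C or at combination.
PC-42-3p: aAGCGAGGacaataatacaag
PC-140-3p: tAGTCAATttaagcggaatgat
PC-351-3p: tATTTCTGcagctttggaatt
PC-20-5p: cAAGCCCAattcgaagccagag

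The third set shows the candidates that share long stretches with each other, PC-248-5p with PC-310-5p and PC-51-5p, and PC-294-5p with PC-210-5p, which have the same seed.
PC-248-5p: tACCTAAGttgctcggactct
PC-310-5p: tCTAAGTTgctcggactctcc
PC-51-5p: gACTATGTtgctcggactctt
PC-210-5p: tTTTCTACcccttttcgacctt
PC-294-5p: tTTTCTACccattttcgacct

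The candidates were mostly 21 nt long and began with U or A. Of the 175, 134 had 21 nt, 40 had 22 nt and 1 had 20 nt, and 94 were 5p arms and 81 were 3p arms. U was the first base of 88 (50.3%), A of 68 (38.9%), G of 10 (5.71%) and C of 9 (5.14%). The share with U was thus near that of the named miRNAs of 20 to 22 nt (49.4% of 257), while of the 234 candidates of 24 nt 9.40% began with U and 84.2% with A. Weighted by reads, U held 70.9% and A 23.0% of the candidates of 20 to 22 nt, but much of this came from a single sequence. Without PC-56-5p the shares were 45.5% for U and 43.2% for A. The 22-nt candidates held 67.3% of the reads of the group and the 21-nt candidates 32.6%. PC-56-5p, itself of 22 nt, alone held 46.7% of the group, so the 22-nt share also came mostly from this sequence.

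**Figure D1:**
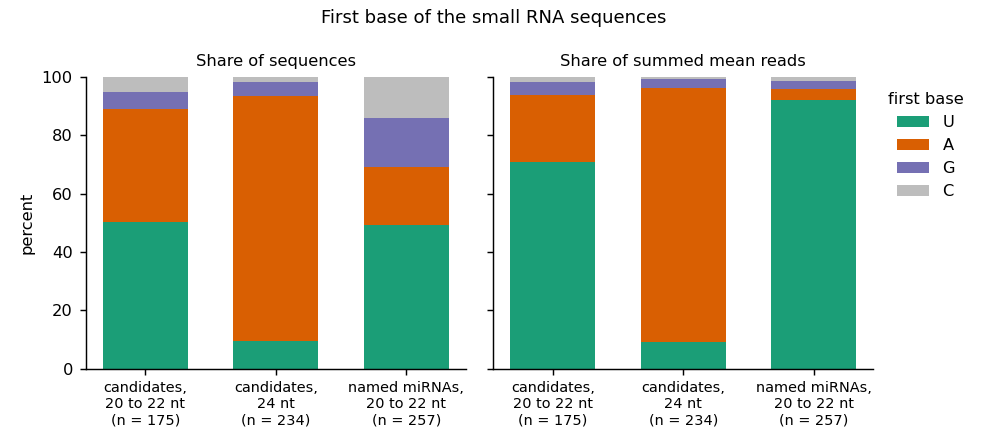
Percent of sequences (left) and of summed mean normalized reads (right) by first base, for the 175 candidates of 20 to 22 nt, the 234 candidates of 24 nt and the 257 named miRNAs of 20 to 22 nt, with each bar adding to all sequences of its class. U began 50.3% of the candidates of 20 to 22 nt and held 70.9% of their reads, and the candidates of 24 nt began mostly with A.

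Most candidates had few reads. Values are the normalized reads that the authors deposited, taken here as the reads of each library times 1 factor. Summed over the group, the mean over the 12 libraries was 6618 normalized reads, 0.601% of all listed reads, against 98.5% for the named miRNAs of 20 to 22 nt. The median candidate had a mean of 4.97 and the median named miRNA of that length 91.4. PC-56-5p alone held 46.7% of the reads of the group, the 5 highest held 67.5% and the 10 highest 76.6%. A mean of at least 100 was reached by 9 candidates, 50 lay between 10 and 100, 83 between 1 and 10, and 33 below 1.

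A candidate was tested for change where 3 or more libraries had 10 or more normalized reads, which 77 candidates (44.0%) did, as did 198 of the named miRNAs of 20 to 22 nt (77.0%) and 98 of the candidates of 24 nt (41.9%). Just inside that level were 9 candidates that reached 10 in exactly 3 libraries, with means of 4.43 to 10.2, and just outside were 19 that reached 10 in 2 libraries, with means of 2.48 to 30.9. The highest of the latter was PC-89-3p. The 98 candidates not tested held 3.97% of the reads of the group. The level can be passed through 1 treatment alone, so candidates high at a single treatment could enter the test on its 3 libraries. Of the 77, 12 reached 10 normalized reads only in libraries at 38 °C and none only at 26 °C, and calls of the former as higher at 38 °C are in part set by this entry level.

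The number of candidates listed above 0 varied widely among the libraries of heat and of combination. It was 95, 97 and 99 in the 3 control libraries, 101, 84 and 87 at drought, 115, 114 and 79 at heat and 100, 153 and 129 at combination. The highest number, 153, came from combination replicate 2, which was also the deepest library with 1698502 listed reads, and the other 11 libraries had 850394 to 1326291. The lowest value above 0 was 2.25 or 2.5 reads in every library, which is 1.58 normalized reads in combination replicate 2 and 3.24 in drought replicate 2, so that a 0 means less than this and not absence. Counted from 3.24 upwards in every library, the numbers were 90, 89 and 91 at control, 92, 84 and 84 at drought, 108, 109 and 77 at heat and 96, 130 and 119 at combination. The order of the libraries at the extremes was kept, with heat replicate 3 lowest and combination replicate 2 highest. The part of depth in these numbers was otherwise not tested.

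**Figure D2:**
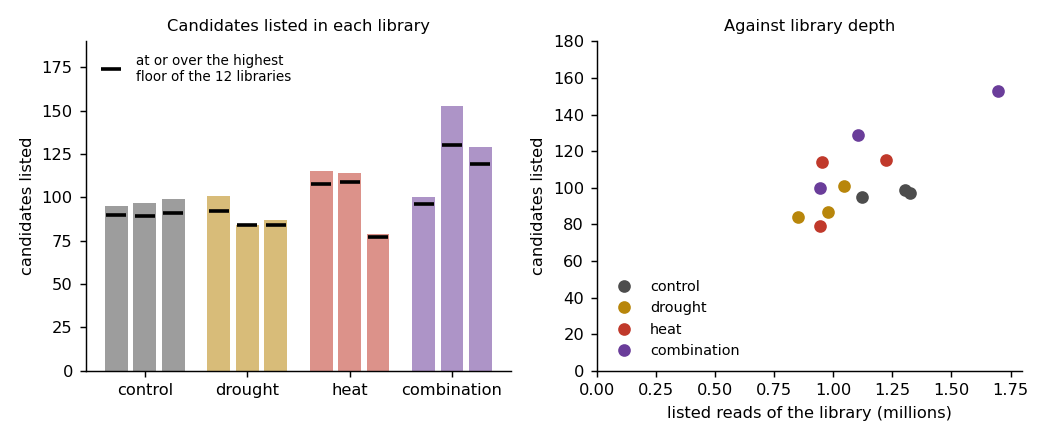
Left, the number of candidates listed above 0 in each library (bars, 3 per treatment) and the number at or over 3.24 normalized reads, the highest floor of any library (black marks). Right, the number listed against the listed reads of the library, with 1 point per library. Heat replicate 3 had the fewest, 79, and combination replicate 2, the deepest library, the most, 153.

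The share of the candidates together in the listed reads was 0.638%, 0.584% and 0.690% at control, 0.586%, 0.570% and 0.542% at drought, 0.572%, 0.607% and 0.462% at heat, and 0.512%, 0.783% and 0.696% at combination. The ranges of all 4 treatments overlapped, and the widest was at combination. Without PC-56-5p the candidates summed to 3031 to 4175 normalized reads at control, 2870 to 3204 at drought, 2764 to 3499 at heat and 3681 to 5175 at combination, so that combination lay above drought and heat and overlapped control, a comparison that was not tested.

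Of the 175 candidates, 98 were listed at all 4 treatments in at least 1 library each, and 42 in every library. At the other end 16 were listed in a single library, 6 of them in combination replicate 2, and 45 in at most 3 libraries. By treatment 15 were listed only at combination, 3 only at heat, 2 only at drought and 3 only at control, where all 765 sequences gave 37, 21, 9 and 17. A further 16 were listed at heat and combination but neither at control nor at drought, against 1 listed at control and drought but not at 38 °C, and over all sequences these counts were 30 and 7.

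Candidates listed only at 38 °C outnumbered those listed only at 26 °C. Of the 175, 34 were above 0 in at least 1 of the 6 libraries at 38 °C and at 0 in all 6 at 26 °C, and 6 showed the reverse. Over all 765 sequences the same counts were 88 and 33. With 3.24 normalized reads as the floor in every library the candidates gave 29 and 13 and all sequences 79 and 44. Combination replicate 2, the deepest library, is among those at 38 °C. In at least 4 of the 6 libraries at 38 °C the number was 8 candidates, of 10 sequences in all, and no candidate was listed in at least 4 libraries at 26 °C and in none at 38 °C. The only 2 sequences of the whole table found in all 6 libraries at 38 °C and in none at 26 °C were the candidates PC-85-3p and PC-42-3p. For watering, 23 candidates were listed only where water was withheld and 7 only where plants were irrigated, against 57 and 53 over all sequences. With the common floor the candidates gave 19 and 10 and all sequences 48 and 58, and combination replicate 2, the deepest library, is among those without water.

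No change was called for the 5 most abundant candidates. PC-56-5p (chromosome 10, 1700091 to 1700238, plus strand; positions here and below are those of the precursor in the authors' annotation on SL3.0) had 4099, 2885 and 4132 normalized reads in the 3 control libraries, 2663, 3069.5 and 2994 at drought, 2824, 3298 and 2635 at heat and 2444, 3239 and 2816 at combination. Its highest values were both at control, and the control range overlapped those of the other treatments. The log2 fold change (log2FC, of normalized reads + 1) against control was −0.33 at drought (SE 0.19), −0.33 at heat (SE 0.19) and −0.38 at combination (SE 0.19), and the smallest adjusted p of the 3 from limma was 0.261. PC-123-5p (chromosome 3, 68858857 to 68859031) came next with a mean of 479, and its libraries lay between 340.2 and 598. PC-84 had both arms among the 4 highest, with 3p values between 336 and 507 and 5p values between 224 and 456. PC-226-5p, with 101 to 273, overlapped between all treatments as well. None of the 9 comparisons called PC-56-5p, PC-123-5p, either arm of PC-84, or PC-226-5p, PC-330-3p or PC-153-5p.

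PC-319-5p (chromosome 5, 5805150 to 5805281), sixth by mean, differed widely between libraries. It had 46.8, 1189 and 439 normalized reads at control, 13.3, 7.77 and 0 at drought, 0 in all heat libraries, and 316, 0 and 0 at combination. The control libraries spanned the widest range, and a single library carried the combination mean. Listed at 0 in every heat library, it was called lower at heat than at control (limma, adjusted p = 0.00894), a call that was lost without control replicate 2 (adjusted p = 0.0549) and when reads recovered from the values were weighted with voom (adjusted p = 0.190).

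Few candidates passed the test of change, and most that did were higher at heat or combination. limma was fitted to log2(normalized reads + 1) of 419 tested sequences, and a change was called at an adjusted p under 0.05. The comparisons share libraries, and p-values measure the spread between the 3 libraries of a treatment. For drought against control no candidate was called (0% of all sequences), and voom called 0. An unadjusted p under 0.05 (limma) was found for 9 of the 77 and for 34 of all 419. For heat against control 3 candidates, all of which reached 10 normalized reads only at 38 °C, were higher and 2 lower, 6.49% of the 77, whereas 15% of all sequences tested were called (2.39% higher and 12.6% lower). For combination against control 10 were higher and none was lower, 13.0% of the 77 against 12.6% of all sequences. Of these 10, 5 reached 10 normalized reads only at 38 °C. Over all 419 sequences, these 10 included, 3.34% were called higher at combination and 9.31% lower.

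Set against drought, 2 candidates were higher, both with 10 normalized reads only at 38 °C, and 1 was lower at heat, where 12.9% of all sequences were called (1.67% higher and 11.2% lower). At combination 9 were higher, 3 of them with 10 normalized reads only at 38 °C, and none was lower than at drought, where 11.9% of all sequences were called (4.53% higher and 7.4% lower). Between combination and heat 2 candidates were higher at combination, beside 6.44% of all sequences (6.21% higher and 0.239% lower). For the 6 libraries at 38 °C against the 6 at 26 °C 11 were higher, 6 of them with 10 normalized reads only at 38 °C, and 1 was lower, beside 19.3% of all sequences (6.44% higher and 12.9% lower). For water withheld against irrigated none was called (1.19% of all sequences), and none by voom. An unadjusted p under 0.05 (limma) was found for 4 of the 77 and for 30 of all 419. The interaction of heat and drought, which asks whether the response to heat differs with watering, was called for 1 candidate (5.01% of all sequences).

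The median log2FC of the 77 candidates was −0.05 for drought against control, 0.10 for heat, 0.31 for combination, 0.50 for combination against drought and 0.33 for 38 °C against 26 °C. Over all 419 sequences tested the medians were 0.03, 0.14, −0.04, −0.15 and 0.03. Of the 77, 54 had a positive log2FC at combination against control, against 201 of the 419, the 77 included. Because 12 of the 77 reached 10 normalized reads only at 38 °C and none only at 26 °C, the entry level limits this reading. Medians and counts of the candidates that set 38 °C against 26 °C are in part set by it. Rescaling by TMM moved the median of all sequences by −0.13 for heat against control, by 0.12 for combination against heat and by 0.17 for the interaction. The 198 named miRNAs of 20 to 22 nt had 5 higher and 47 lower at heat, and 2 higher and 31 lower at combination, with medians of −0.19 and −0.16. The 98 candidates of 24 nt had 1 higher and none lower at heat, and 1 higher and 1 lower at combination. Their medians were 0.92 at heat, above that of the 77 candidates, and −0.03 at combination. Of the 98, 81 had a positive log2FC at heat and 47 at combination. The families miR162, miR168 and miR403, which act on DICER-LIKE 1, ARGONAUTE 1 and ARGONAUTE 2, had 14 tested sequences, with 1 higher and 6 lower at heat, and 2 higher and 6 lower at combination.

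**Figure D3:**
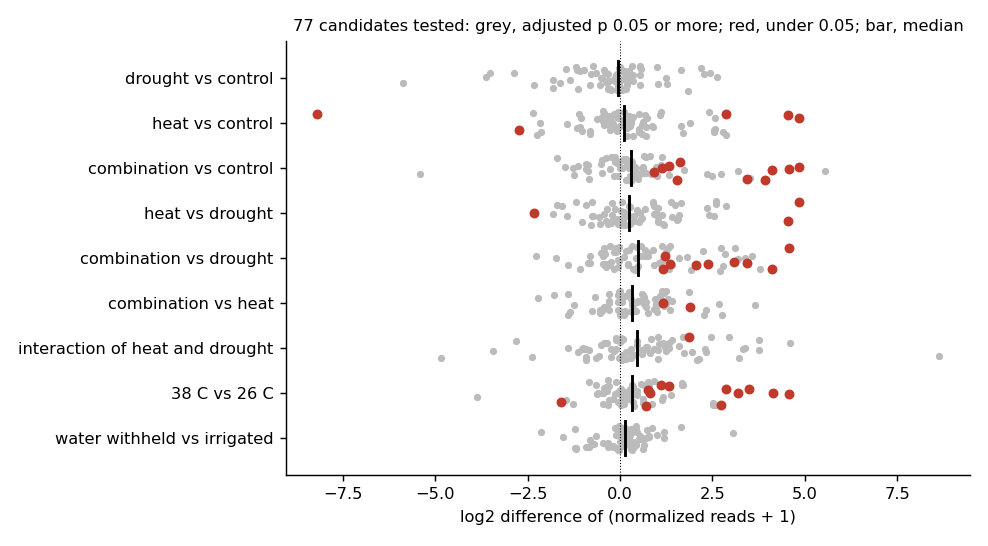
Log2 difference of normalized reads + 1 for the 77 candidates tested, in each of the 9 comparisons, with 1 point per candidate. Red points had an adjusted p under 0.05 (limma), grey points did not, and the black bar is the median. For combination against control 10 were called, all higher, and for drought against control none was called.

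PC-85-3p and PC-42-3p were listed above 0 only at 38 °C, and both entered the test through libraries at 38 °C alone, so that their p-values are given as a description. PC-85-3p (chromosome 1, 4430799 to 4430953, plus strand) was listed at 0 in the 6 libraries at 26 °C, whereas heat gave 24.1, 37.7 and 12.4 normalized reads and combination 30.4, 10.8 and 34.8. The heat and combination libraries overlapped, and all 6 were above the lowest value any library can list. It was called higher at 38 °C (limma, adjusted p = 4.39e-05), at heat against control (adjusted p = 0.000829) and at combination against control (adjusted p = 0.00146). The 5p arm of the same precursor, PC-85-5p, named after its values were seen, was also listed at 0 in all 6 libraries at 26 °C, while heat gave 11.2, 15.3 and 0 and combination 12.6, 4.43 and 9.56. Where both arms were listed, the 5p arm held 21.6% to 31.7% of the reads of the pair.

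PC-42-3p (chromosome 4, 24380643 to 24380817) was likewise listed at 0 in the 6 libraries at 26 °C, with 53.7, 21.2 and 18.0 normalized reads at heat and 9.49, 6.64 and 14.8 at combination. The 3 heat libraries were above the 3 combination libraries, but the difference between these treatments did not pass the test. It was called higher at 38 °C (limma, adjusted p = 0.00014), and at heat against control (adjusted p = 0.00067) and against drought (adjusted p = 0.000832). PC-50-3p (chromosome 3, 23734304 to 23734450), named after its values were seen, was also at 0 in the 6 libraries at 26 °C. It had 13.8, 25.9 and 0 at heat and 25.3, 9.49 and 18.3 at combination, so that these 2 treatments overlapped. It was called at 38 °C (limma, adjusted p = 0.00907), and it too entered the test through libraries at 38 °C alone.

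The pair PC-115 (chromosome 3, 68032899 to 68033075) was low at 26 °C and highest at combination, and both arms reached 10 normalized reads only at 38 °C. Both arms thus entered the test through libraries at 38 °C alone, so that their p-values are given as a description. No control library listed PC-115-5p above 0, drought gave 7.59, 0 and 0, heat 12.9, 14.1 and 0, and combination 15.2, 38.0 and 35.6. PC-115-3p had 0, 0 and 6.09 at control, 9.48, 7.77 and 0 at drought, 9.46, 22.4 and 8.68 at heat and 12.6, 47.5 and 36.5 at combination. In both arms combination replicate 1 was the lowest of its treatment, and for the 3p arm it lay within the heat range, while no combination library overlapped control. Against control the 3p arm rose by a log2FC of 3.92 (SE 1.06, limma, adjusted p = 0.0252), and the 5p arm was called at an adjusted p = 0.0191. The call of the 5p arm ended without control replicate 1 or 3 or combination replicate 2 or 3 (adjusted p 0.0534 to 0.0764), and that of the 3p arm without control replicate 1 or 2 or combination replicate 2 or 3 (adjusted p 0.0807 to 0.106), with a fit of only the control and combination libraries and with voom.

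The arms of PC-132 (chromosome 6, 23724811 to 23725064, minus strand) were highest at combination and lowest at drought. PC-132-5p had 38.3, 52.0 and 66.1 normalized reads at control, 42.7, 23.3 and 25.4 at drought, 48.6, 75.4 and 62.0 at heat and 86.0, 241 and 190.4 at combination. PC-132-3p had 40.3, 46.0 and 24.8 at control, 20.9, 20.7 and 22.7 at drought, 43.4, 36.5 and 42.8 at heat and 86.0, 102 and 88.2 at combination. All combination libraries were above all others in both arms, and for the 3p arm the drought libraries were below all others. Against drought the 5p arm was higher by a log2FC of 2.39 (SE 0.41, limma, adjusted p = 0.00178) and the 3p arm by 2.05 (SE 0.32, adjusted p = 0.000766), and both calls held under every alternative setting. Against control the log2FC was 1.62 (SE 0.41, adjusted p = 0.021) and 1.33 (SE 0.32, adjusted p = 0.0143), and these calls ended with a fit of only the control and combination libraries and without combination replicate 2 or 3 (also without control replicate 1 for the 5p arm and without control replicate 3 for the 3p arm). The 3p arm was the one candidate called for the interaction, with a log2FC of 1.87 (SE 0.45, adjusted p = 0.0272). This call was lost in 12 of 21 alternative settings, among them each single library left out except control replicate 3, heat replicate 3 and combination replicate 1, and its adjusted p reached 0.0708. Against heat the log2FC of the 3p arm was 1.15 (SE 0.32, adjusted p = 0.049), lost in 14 of 22 settings.

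PC-140-3p, PC-351-3p and PC-20-5p, from 3 other precursors, were also highest at combination. PC-140-3p (chromosome 7, 7725124 to 7725378) had 77.1, 103 and 59.6 normalized reads at control, 77.8, 58.3 and 90.1 at drought, 92.4, 97.7 and 76.2 at heat and 144, 194 and 183 at combination. Its combination libraries were above all 9 others, which overlapped each other. It rose against control by a log2FC of 1.14 (SE 0.29, limma, adjusted p = 0.0197) and against drought by 1.20 (SE 0.29, adjusted p = 0.0141). The former call ended with a fit of only both groups and without control replicate 1 or 3 or combination replicate 2 or 3 (adjusted p up to 0.0866), the latter without drought replicate 2 or combination replicate 3.

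PC-351-3p (chromosome 1, 90484836 to 90484948) had 43.8, 43.8 and 39.2 at control, 37.9, 32.4 and 35.4 at drought, 52.4, 51.8 and 58.3 at heat and 77.2, 70.2 and 95.6 at combination. The 4 treatments did not overlap in the order drought, control, heat and combination, but neither drought nor heat was called against control. At 38 °C it was higher than at 26 °C by a log2FC of 0.76 (SE 0.19, limma, adjusted p = 0.0121) under every alternative setting, whereas the call at combination against control (log2FC 0.91, SE 0.27, adjusted p = 0.0426) ended in 15 of 22 settings, among them each single library left out except heat replicate 3. PC-20-5p (chromosome 2, 35676887 to 35677045) had 17.8 to 31.0 at control, 21.3 to 29.3 at drought, 19.8 to 37.7 at heat and 53.1 to 75.6 at combination. Its combination libraries were above all others, with a log2FC of 1.53 against control (SE 0.37, limma, adjusted p = 0.0164), a call that ended in the same 5 settings as that of PC-140-3p. A further 2 called candidates were low and are named after their values were seen. PC-243-5p had at most 2.73 at control and 19.8, 12.4 and 4.34 at heat (limma, adjusted p = 0.0336). It entered the test through libraries at 38 °C alone, so that its p-value is given as a description. PC-78-5p had 13.3, 0 and 0 at drought and 26.6, 15.2 and 18.3 at combination (limma, adjusted p = 0.041).

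The calls against control at combination rested on few libraries. Without combination replicate 2 or 3 only 2 candidates were called, without control replicate 1 there were 3 and without control replicate 3 there were 4, against 10 with all libraries. A fit of the control and combination libraries alone called 5.

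**Figure D4:**
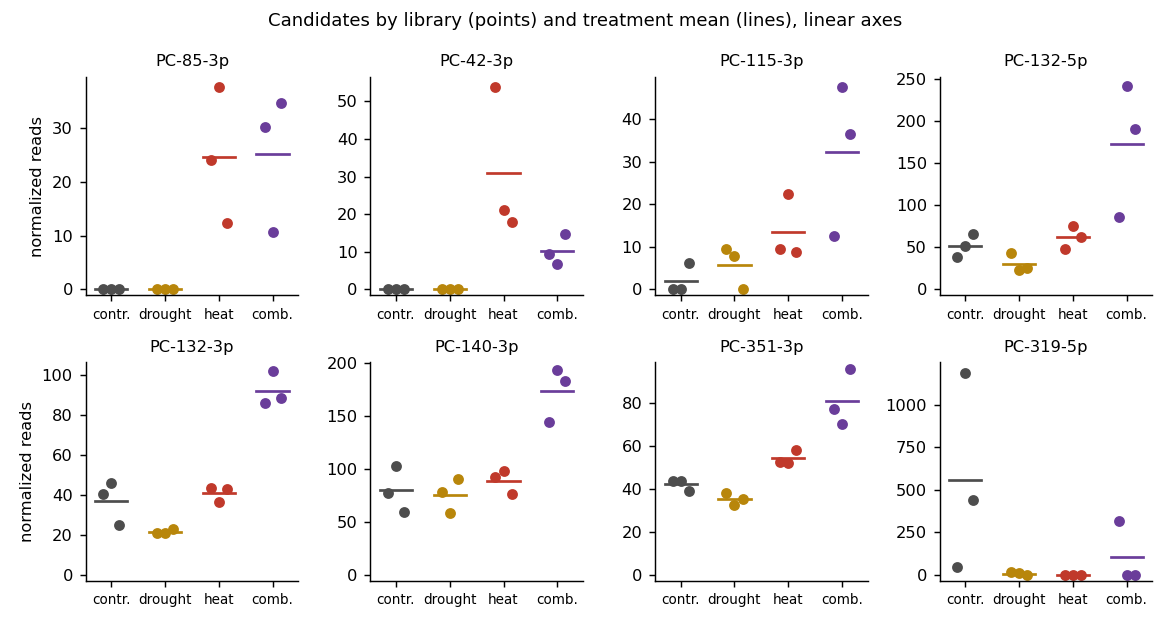
Normalized reads of 8 candidates in each library (points, 3 per treatment) with the mean of the treatment (line), on linear axes that differ between panels. PC-85-3p and PC-42-3p were at 0 in every library at 26 °C, PC-132, PC-140-3p and PC-351-3p were highest at combination, and PC-319-5p was carried by single libraries.

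The 5p and 3p arms of a precursor were often both listed. The 175 candidates came from 126 precursors, of which 49 had both arms among them. In the other 77 a single arm was a candidate of 20 to 22 nt, and for 19 of these the second arm was a candidate of another length. Laid against each other without gaps, the arms of the 49 pairs formed a median of 18 base pairs (15 to 21, with G-U pairs counted). In 22 pairs both 3′ ends stuck out by 2 bases, the form that a DICER-LIKE enzyme leaves, in 31 both stuck out by 1 to 3 bases, and 3 pairs, PC-85 among them, were blunt. PC-56 had 2-base ends at both sides with 18 base pairs, as did PC-153 and PC-89 (the last named after its values were seen). PC-84 had 2-base ends with 17 base pairs. Other pairs had another form, since the 3′ ends of PC-132 stuck out by 4 bases at both sides and those of PC-115 by 4 and 3, while in PC-123 both 5′ ends stuck out by 2 bases.

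The 5p arm had more reads in 24 pairs and the 3p arm in 25. In 27 pairs exactly 1 arm began with U, and that arm was the higher one in 12. In 16 pairs 1 arm held over 90% of the reads, and in 26 both arms held between 25% and 75%. Both arms reached the level for the test in 11 pairs.

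Among the 5 pairs with the most reads, PC-56, PC-123 and PC-153 were dominated by the 5p arm and PC-84 and PC-132 were not. The 5p arm held 96.9% of the mean reads of PC-56, 92.6% of PC-123 and 94.7% of PC-153, but 44.0% of PC-84 and 62.4% of PC-132. The share moved little between libraries in PC-123 (89.7% to 94.8%) and more in PC-132 (48.7% to 72.7%) and PC-84 (35.8% to 57.5%). In PC-84 and PC-132 neither arm held most of the reads in every library.

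PC-56-3p, the minor arm of PC-56, was lowest at heat. It had 90.5, 164 and 238 normalized reads at control, 74.0, 157 and 129 at drought, 35.3, 23.6 and 12.4 at heat and 60.7, 142 and 66.9 at combination. The heat libraries were below all others, and control, drought and combination overlapped. It fell at heat against control by 2.75 on the log2 scale (SE 0.49, limma, adjusted p = 0.00124) and against drought by 2.34 (SE 0.49, adjusted p = 0.00514), under every alternative setting, and PC-56-5p was not called. The difference between the arms was not tested. The share of the 5p arm was 98.8%, 99.3% and 99.5% at heat and 94.6% to 97.8% in the other libraries, so the heat libraries stood apart. At combination PC-56-3p was higher than at heat by a log2FC of 1.89 (SE 0.49, adjusted p = 0.0401), a call that ended in 10 of 22 settings, among them combination replicate 2 or 3, heat replicate 2 or 3, drought replicate 2 or 3 or control replicate 2 left out.

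**Figure D5:**
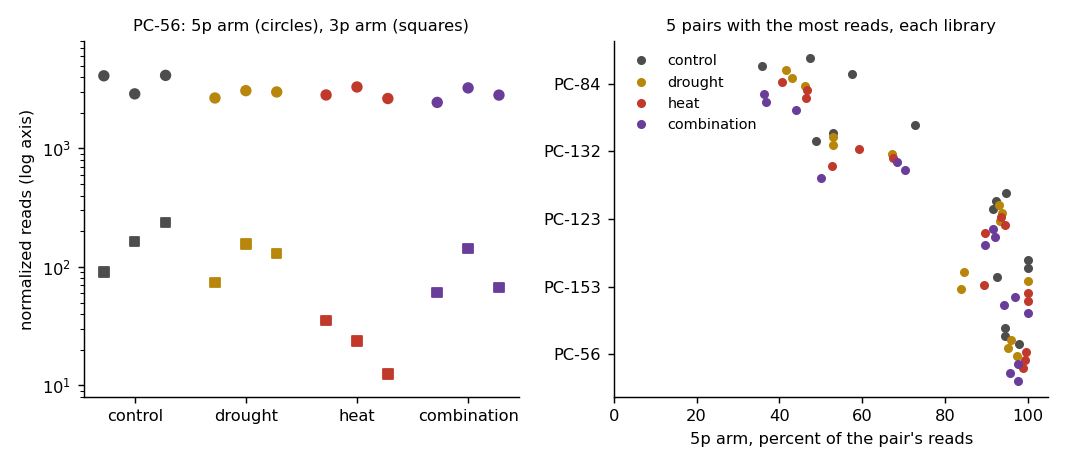
Left, normalized reads of PC-56-5p (circles) and PC-56-3p (squares) in each library on a log axis. Right, the 5p arm's percent of the reads of its pair in each library, for the 5 pairs with the most reads. PC-56-3p lay between 12.4 and 35.3 at heat and at 60.7 or more elsewhere, while PC-56-5p stayed between 2444 and 4132.

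The arms of PC-89 (chromosome 5, 63916579 to 63916677, minus strand) were high in 1 library. PC-89-5p had 526 normalized reads in combination replicate 2, 26.6 and 6.08 in the other combination libraries, 51.6 in heat replicate 1, 9.48 and 14.4 in 2 drought libraries and 0 in the others. PC-89-3p, named after its values were seen, had 332 in combination replicate 2, 24.9 in heat replicate 1, 7.59 and 6.08 in the other combination libraries and 0 elsewhere. Both arms were thus highest in the same library, which was also the deepest. PC-89-5p did not pass the test at combination against control (limma, adjusted p = 0.0608).

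Besides PC-56-5p, the study's text names PC-298-5p and PC-287-5p and its list of targets PC-44-3p, and these were low. PC-298-5p had 15.2, 25.9 and 24.3 normalized reads at combination and at most 8.70 in any other library, so that combination stood apart, but it did not pass the test against control (log2FC 2.49, SE 1.15, limma, adjusted p = 0.213) or drought (adjusted p = 0.064). PC-44-3p was listed in all 12 libraries between 2.98 and 11.8 and was not called in any comparison. PC-287-5p was listed in 4 libraries, 5.53 in drought replicate 3 and 20.2, 5.06 and 10.4 at combination, all with water withheld, and was below the level for the test.

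PC-193-3p, the eleventh by mean and named after its values were seen, was higher in every drought library than in any control library without passing the test. It had 25.9, 24.6 and 53.9 normalized reads at control and 212, 104 and 190.1 at drought, with 44.6 to 94.2 at heat and 17.7 to 109 at combination. The log2FC for drought against control was 2.27 (SE 0.59, limma, adjusted p = 0.227).

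Most candidates stood alone in sequence. Only 3 seeds occurred in more than 1 candidate, each in 2, namely in PC-89-5p with PC-93-3p, in PC-38-5p with PC-44-5p and in PC-210-5p with PC-294-5p. Another 3 candidates, PC-257-5p, PC-34-5p and PC-222-3p, had the seed of a named sequence (sly-miR4376-p3, sly-miR156f-3p_stu and sly-miR5303), and the last of these had 18 of 21 bases in common with sly-miR5303g_stu. PC-108-5p, named after its values were seen, was identical over 20 of 20 compared bases to sly-miR171m-p5_mdm, and PC-147-5p, also named so, had 18 of 21 bases in common with sly-miR390b-5p. These likenesses are of sequence alone. Of the pair with the same seed, PC-294-5p had 16.9, 33.7 and 13.1 normalized reads at control, at most 4.74 at drought, at most 11.2 at heat and 6.96 to 7.82 at combination, and was not called, while PC-210-5p was listed in 4 libraries and was not tested.

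The largest group that shared a run of at least 12 bases held 5 candidates of 4 precursors on chromosomes 2, 3, 5 and 11, PC-248-5p, PC-310-5p, PC-343-3p and both arms of PC-51. PC-248-5p and PC-310-5p had 18 bases in common, and both had 14 in common with PC-51-5p. The shared runs begin at a different base of each sequence, so the seeds differ although the runs reach into them. PC-343-3p matched the complement of PC-51-5p over 17 bases. Of the 5, PC-310-5p and PC-51-5p were tested, and neither was called. PC-51-5p had 18.9, 19.1 and 20.0 normalized reads at control and 13.3, 20.7 and 13.3 at drought, against 6.88, 11.8 and 0 at heat and 12.6, 10.1 and 4.35 at combination, with every library at 38 °C below every library at 26 °C, and the log2FC at 38 °C was −1.47 (SE 0.58, limma, adjusted p = 0.105). PC-20-3p and PC-21-3p, named after their values were seen, shared 19 bases and came from overlapping positions on opposite strands of chromosome 2. Whether reads were divided between them was not tested.

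Degradome libraries, which capture the cut ends of transcripts, list a site for 69 of the 175 candidates with 138 pairs of candidate and transcript. There were 78 pairs in the control list, 50 at drought, 54 at heat and 62 at combination, and 14 pairs were in all 4 lists. PC-287-5p was listed with HSP22.7 (Solyc01g102960.3.1), a class IV small heat shock protein, at 3362, 3606 and 5014 normalized degradome reads in the heat libraries, 1016, 324 and 0 at combination and 0, 37.9 and 0 at drought, whereas the candidate itself was listed at 0 in all heat libraries. PC-351-3p was listed with GGAT2, a glutamate glyoxylate aminotransferase, at 207, 427 and 561 at control, 44.8, 0 and 321 at heat and 122, 36.0 and 0 at combination. The drought list did not hold this pair, although the candidate itself was lowest at drought, and the control list did not hold the pair with HSP22.7. The lists hold only transcripts with a site found, and these values were not tested.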

How the data were processed

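Small RNA of tomato leaf was read from a table of 869 lines with 765 different sequences, and libraries were assigned to treatments by their labels. Per the paper, reads that matched Rfam, a repeat database or the Solanaceae database were taken out by the authors. The authors aligned the others to plant miRNAs and precursors and deposited normalized reads as a signal. Its formula and the aligner are not given in the sources used here. From the steps of the values, the signal was taken as reads times 1 factor per library. Of the values above 0, 85.1% to 87.9% were whole multiples of 1 read within 0.05 read. Because the others were not, no model of counts was the main test. Listed reads per library were 850394 to 1698502. Factors were 0.633 to 1.29. The deposited degradome values are also a signal, normalized by the authors, and were used without a test. The circular RNA table was not used here.

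Each sequence was taken once, and candidate names and positions were matched by sequence from the list of miRNAs in the study (all 765 matched). limma 3.58.1 in R 4.3.3 was fitted to log2(normalized reads + 1) of the 419 sequences that reached 10 normalized reads in 3 or more libraries. Each treatment had 1 mean and the variance followed a trend, and two-sided p-values were adjusted within a comparison (Benjamini-Hochberg, called under 0.05). The fit was tested on simulated data. Tables were made with pandas 2.3.3 and numpy 2.4.6 and figures with matplotlib 3.10.9, all under Python 3.11.15. No per-sample column of another series was found (0).

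Named are the candidates the paper or its list of targets names (PC-56-5p, PC-298-5p, PC-287-5p and PC-44-3p), the 10 highest by mean, those called without overlap of groups where the higher mean reached 20 (up to 10 per direction and comparison), those called for the interaction, the 5 pairs with the most reads, and the largest groups with a shared seed or a run of 12 bases. Others are marked. The members, lists and tests were chosen with earlier results of these data known. Alternatives were pseudocounts of 0.5 and 5, no filter, scaling by TMM or the median of ratios, no trend, the replicate number as a block, only the groups compared, each library left out, and, chosen after the data were seen, voom on reads recovered from the values and a common floor for all libraries.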

Additional observations from a re-analysis of the deposited data

Results flagged for a closer look

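PC-132-3p was the one candidate of 20 to 22 nt called for the interaction of heat and drought, beside 5.01% of all 419 sequences. An unadjusted p under 0.05 (limma) was found for 15 of the 77 candidates and for 86 of all 419. The interaction was a log2FC of 1.87 (SE 0.45, limma, adjusted p = 0.0272), with 40.3, 46.0 and 24.8 normalized reads at control, 43.4, 36.5 and 42.8 at heat, 20.9, 20.7 and 22.7 at drought and 86.0, 102 and 88.2 at combination. With water withheld all 3 libraries at 38 °C were above all 3 at 26 °C, and in watered plants they overlapped. The call was lost in 12 of 21 alternative settings.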

How the results depend on the processing

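The changes called for candidates chosen by the naming rule kept their direction in all settings run, 22 for comparisons of 2 treatments and 21 for the interaction and 38 °C against 26 °C. PC-50-3p, PC-85-5p, PC-243-5p and PC-78-5p were not followed one by one. PC-56-3p at heat, both arms of PC-132 at combination against drought and PC-351-3p at 38 °C stayed called throughout. Of the candidates called, drought against control had 1 without the filter on low values, heat against control had 3 with voom, and combination against control had 5 in a fit of only those groups. Combination against heat had 1 with a pseudocount of 0.5, without the trend or with voom, 5 with TMM, 4 with the median of ratios and 0 in a fit of only those groups. The interaction had 2 with a pseudocount of 5 or the median of ratios, 3 with TMM and 0 without the filter or with voom. Leaving out 1 library at a time gave 0 to 2 called for drought against control, 4 to 8 for heat against control, 2 to 11 for combination against control, 3 to 5 for heat against drought, 3 to 11 for combination against drought, 0 to 2 for combination against heat, 0 to 4 for the interaction, 7 to 15 for 38 °C against 26 °C and 0 to 1 for water withheld. The cause of these moves was not tested. Of the descriptions, 42 candidates were listed at all treatments where every library was required, against 98, and 121 would be tested at 5 normalized reads, against 77. Values near 10 normalized reads rest on few reads, which limits the low candidates.

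In the labels replicates share only a number. Libraries of the same number had a median correlation of their deviations of −0.03 over 18 pairs, against 0.02 over 36 pairs of other numbers. The ranges were wide, −0.379 to 0.381 and −0.399 to 0.393. Such a median cannot show whether some libraries were processed together, which was not tested. With the replicate number as a block, 1 candidate was called for combination against heat and 0 for the interaction, and the other counts moved by at most 1.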
